A study of Mus musculus with 10 samples.

Results

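Genes of xenobiotic metabolism and of the antioxidant defence under the transcription factor NRF2 were followed in the epithelium of mouse gingiva, the gum that surrounds the teeth. The group holds 42 genes, taken by symbol from the 55414 genes of the deposited count table, where each symbol occurs once. They were read in 4 classes: 3 sensors and regulators, 14 NRF2 targets, 15 glutathione enzymes and 10 phase I enzymes. Polyadenylated RNA was measured in 10 libraries, 5 of epithelium from the buccal side, facing the cheek, and 5 from the palatal side, facing the palate. Both groups are Mus musculus tissue digested with the protease Dispase and separated with forceps under a microscope, and the labels name no treatment, genotype, strain, age or microbial status for either. The title of the series names variation of the gingiva by place and by microbiota, and these libraries are labelled by place only. The series' design text instead speaks of 2 pools, each of 4 mice, specific pathogen-free (SPF) against germ-free (GF), and which libraries it concerns could not be told from the labels. The labels do not say whether libraries came from separate animals or from pools, so a p-value here measures the spread between 5 libraries a side and that spread may be technical.

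NRF2, encoded by Nfe2l2, is held in the cytoplasm and marked for degradation by KEAP1, a sensor whose cysteines react with oxidants and electrophiles. When KEAP1 is modified, NRF2 accumulates, pairs with a small MAF protein and binds antioxidant response elements near genes for glutathione synthesis, thioredoxin cycling, NADPH supply and conjugation. Phase I enzymes oxidise, reduce or hydrolyse foreign compounds, and glutathione S-transferases then join the reactive products to glutathione. The aryl hydrocarbon receptor, encoded by Ahr, is a ligand-activated factor that induces the cytochrome P450 genes of the Cyp1 family. In the mouth these enzymes stand between the lumen and the living cell layers, which meet dietary and microbial aldehydes, quinones and oxidants.

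Total counts ran from 25868777 to 37234192 per library, and 14062 genes had enough counts to be tested. Across them, palatal and buccal libraries differed broadly: edgeR's quasi-likelihood test, at a Benjamini-Hochberg adjusted p of 0.05, called 38.9% of tested genes. Those raised in palatal epithelium were 18.7% of tested genes and those reduced 20.3%. For 28.3% of tested genes the ranges of both sides did not overlap. Keratinocyte markers, of which 5 of 12 were higher and 4 lower, were abundant on both sides, with a summed level of 135328 to 153366 CPM (read counts scaled to a common library size) in buccal and 126518 to 140314 CPM in palatal libraries. Of 9 leukocyte markers 7 were lower in palatal and 1, Itgam, was higher, and their summed level was 49.0 to 96.0 CPM in buccal and 28.7 to 47.2 CPM in palatal libraries. Of this sum S100a8, which did not pass (edgeR adjusted p = 0.0742), made up 32.0 CPM in buccal and 16.3 CPM in palatal libraries on average. Of 10 fibroblast and matrix markers 6 were tested and 3 were higher, with sums of 23.3 to 30.3 CPM in buccal and 95.0 to 110.7 CPM in palatal libraries, of which Dcn made up 6.61 CPM in buccal and 73.3 CPM in palatal libraries on average. Of 6 endothelial markers 1 was tested and did not pass (sums of 3.38 to 6.86 and 2.36 to 7.41 CPM), and of 5 skeletal muscle markers 3 of 4 tested were lower (1.32 to 8.41 and 0.199 to 3.03 CPM). Of 6 melanocyte and nerve markers 1 was tested and did not pass, with Tyrp1 at 0 in every library (0.869 to 1.11 and 0.876 to 1.37 CPM). The leukocyte markers Cd2 (177 counts over the buccal and 28 over the palatal libraries) and Adgre1 (139 and 54 counts) entered the test through their buccal side. So, for the most part, did the called muscle markers Acta1 (220 and 44 counts), Tnnt3 (172 and 37) and Myl1 (83 and 19). The matrix marker Fbn1 (37 and 262 counts) entered through its palatal side. All these calls are therefore descriptions. The part of these other cell types in the results below was not tested. In such bulk samples fewer cells of a type and less RNA per cell cannot be told apart.

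Of the 42 genes, 41 were tested and 26 passed (63.4%, beside 38.9% of all tested genes), 8 higher and 18 lower in palatal epithelium. That is 19.5% of the tested members higher and 43.9% lower, beside 18.7% and 20.3% of all tested genes. These members were chosen with earlier results of these data known. Their median log2 fold change, palatal minus buccal, was -0.08, against 0.01 for all tested genes, and 22 of 41 were negative. A difference of at least 2-fold was called for 10 members, 8 lower and 2 higher, where 10.2% of all tested genes were called at that size. The sides did not overlap for 19 members (46.3%, beside 28.3% of all genes), 12 with buccal above and 7 with palatal above. The classes differed in composition: 0 of 15 glutathione enzymes were higher and 8 lower, NRF2 targets split 4 higher to 5 lower, and phase I enzymes held both the steepest rises, Fmo1 and Fmo2, and the steepest falls, Aldh3a1 and Ces1d. For the count of 0, edgeR at an unadjusted p under 0.05, DESeq2 and limma-voom likewise gave 0. The remaining member, Cyp1a1, had too few counts to be tested.

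**Figure D1:**
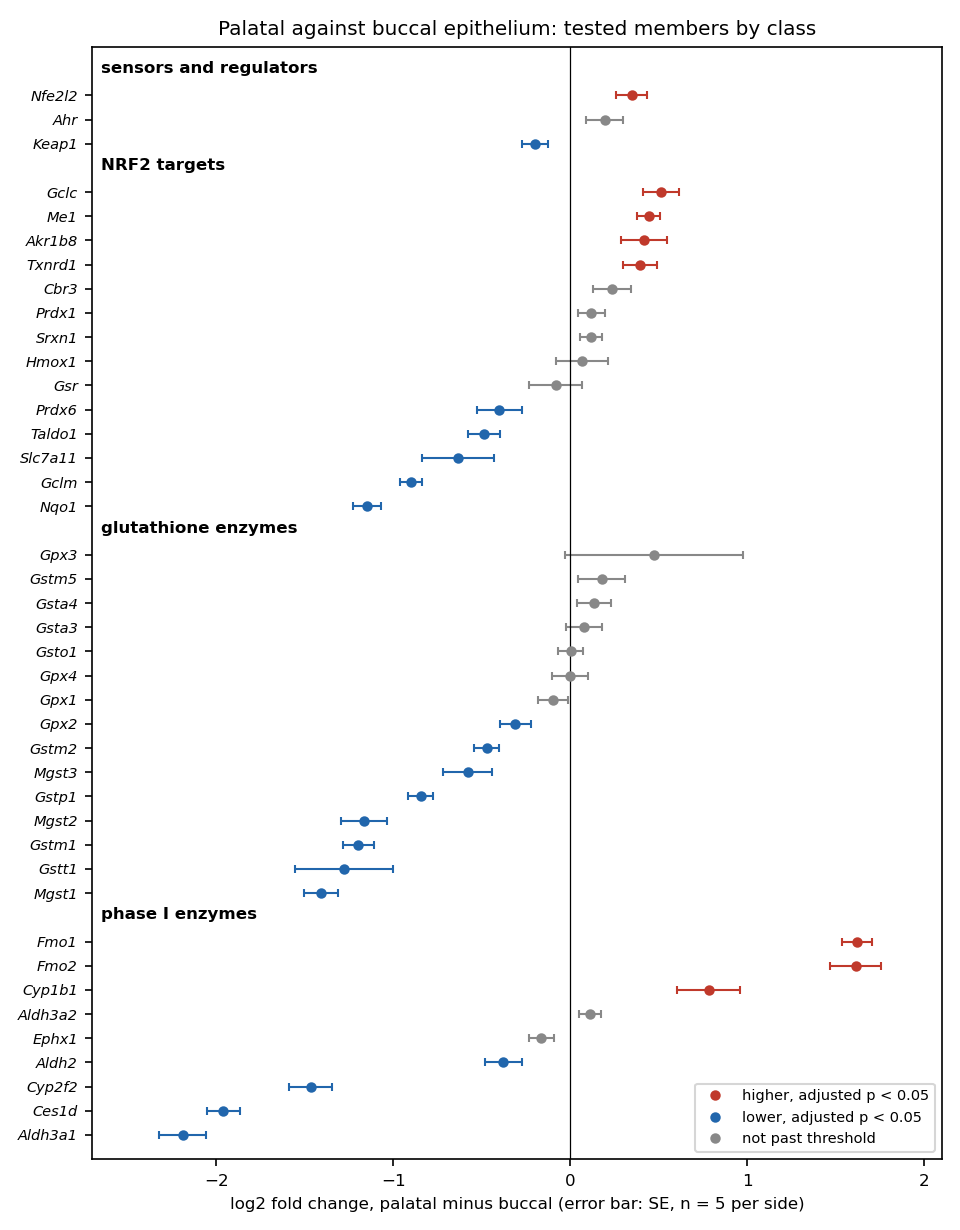
Log2 fold change of each of the 41 tested genes (x axis, palatal minus buccal, error bar SE, n = 5 libraries per side), ordered within 4 classes on the y axis, with red and blue marking genes past an adjusted p of 0.05 in edgeR's test. All coloured glutathione enzymes lie left of 0, while NRF2 targets and phase I enzymes lie on both sides.

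Among the regulators, Nfe2l2 stood at 315, 398, 418, 428 and 441 CPM in buccal libraries 1 to 5 and 485, 481, 511, 530.2 and 539 CPM in palatal libraries 1 to 5. Every palatal library lay above every buccal one, with buccal library 1 the lowest. Nfe2l2 was 1.27-fold higher in palatal (log2 fold change 0.35 ± 0.09, SE, n = 5 per side; edgeR adjusted p = 0.00535). Keap1 was at 53.1, 51.8, 46.2, 51.3 and 48 CPM in buccal libraries 1 to 5 and 49.1, 44.8, 45.3, 39.7 and 39.2 CPM in palatal libraries 1 to 5. The sides overlapped, and palatal libraries 4 and 5 were below all the others. Its difference of -0.20 ± 0.07 passed narrowly (edgeR adjusted p = 0.0442). The call held without buccal library 3 or palatal library 1 and was lost without any of the other 8 libraries, with log2 fold changes from -0.24 to -0.16 and adjusted p from 0.0201 to 0.118 over the 10 omissions. Ahr was at 18.8, 20.9, 20.8, 23 and 27.4 CPM in buccal libraries 1 to 5 and 21.8, 27.3, 24.7, 23.6 and 29.6 CPM in palatal libraries 1 to 5. Its ranges overlapped, and the difference of 0.19 ± 0.11 did not pass (edgeR adjusted p = 0.168), although without buccal library 5, the highest of its side, it was 0.28 (adjusted p = 0.0354; 0.0354 to 0.353 over the omissions).

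Promoter sequences were searched for the core of the element that NRF2 binds, and 32 of the 42 members have a promoter in the RefSeq table of build GRCm38.p6, with 41 starts among them. The 250 bases before each start were read on both strands for this antioxidant response element core, TGACNNNGC, which was present in 10.2% of all 32851 such promoters. It was present at 7 of the 41 member starts, those of 3 NRF2 targets (Gclm, Txnrd1 and Prdx1), 3 glutathione enzymes and Nfe2l2. The windows below are printed 5′ to 3′ on the gene's own strand, with the match in capitals, since these genes differ in direction while sharing the core. Where the capitals begin with GC the core lies on the opposite strand. Gclm and Mgst1 were lower in palatal, Txnrd1 and Nfe2l2 higher, and Prdx1, Gsta3 and Gstm5 did not pass.
Gclm: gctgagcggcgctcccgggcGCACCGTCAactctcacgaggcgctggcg
Mgst1: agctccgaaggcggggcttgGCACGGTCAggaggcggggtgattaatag
Txnrd1: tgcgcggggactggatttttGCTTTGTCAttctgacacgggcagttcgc
Nfe2l2: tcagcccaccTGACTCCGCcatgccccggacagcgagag
Prdx1: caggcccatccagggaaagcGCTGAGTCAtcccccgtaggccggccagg
Gsta3: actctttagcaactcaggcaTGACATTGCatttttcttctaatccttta
Gstm5: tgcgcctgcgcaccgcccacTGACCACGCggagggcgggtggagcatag
The match begins 134 bases before the start in Gclm (chr3:122245403-122245451, + strand), 56 in Mgst1 (chr6:138140451-138140499, + strand), 92 in Txnrd1 (chr10:82859094-82859142, + strand) and 240 in Nfe2l2 (chr2:75704875-75704913, - strand). It begins 133 bases before the start in Prdx1 (chr4:116685446-116685494, + strand), 121 in Gsta3 (chr1:21240444-21240492, + strand) and 42 in Gstm5 (chr3:107895792-107895840, + strand). For Txnrd1 it is at 1 of 3 listed starts, and for Mgst1 at 1 of 2. Nqo1, Srxn1, Slc7a11, Me1, Taldo1, Akr1b8 and Cbr3 hold no such letters in this window, which says nothing on elements elsewhere. Members without a listed promoter could not be searched. The whole 250 bases are given for Gclm (chr3:122245307-122245556, + strand), which fell, and for the matching start of Txnrd1 (chr10:82858956-82859205, + strand), which rose.
Gclm: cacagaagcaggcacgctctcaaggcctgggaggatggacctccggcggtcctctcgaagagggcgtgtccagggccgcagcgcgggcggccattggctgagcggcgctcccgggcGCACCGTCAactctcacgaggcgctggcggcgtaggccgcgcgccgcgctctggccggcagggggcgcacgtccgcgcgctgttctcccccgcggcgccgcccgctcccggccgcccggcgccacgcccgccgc
Txnrd1: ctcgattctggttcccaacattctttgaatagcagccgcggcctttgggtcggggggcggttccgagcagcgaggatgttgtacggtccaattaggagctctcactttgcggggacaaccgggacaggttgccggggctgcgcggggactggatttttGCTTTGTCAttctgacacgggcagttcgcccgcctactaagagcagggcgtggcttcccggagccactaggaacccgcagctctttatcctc

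The class of NRF2 targets did not move one way. Of its 14 genes, all tested, 4 were higher (28.6%, beside 18.7% of all tested genes), 5 lower (35.7%, beside 20.3%) and 5 did not pass. The median log2 fold change was 0.09. The class does not hold every NRF2 target among the members. Gstp1 and Gpx2, both lower, are examples that were read with the glutathione enzymes and are not in these counts. The split of 4 higher to 5 lower therefore depends on where the class borders were drawn. The 2 subunits of glutamate-cysteine ligase, which carries out the rate-limiting step of glutathione synthesis, went in opposite directions. Gclm, the modifier subunit, stood at 85.3, 93.3, 86.3, 89.8 and 83.3 CPM in buccal libraries 1 to 5 and 47.2, 47, 43.1, 50.6 and 47.1 CPM in palatal libraries 1 to 5. All palatal libraries lay far below all buccal ones, and the level was 1.86-fold lower (log2 fold change -0.90 ± 0.06, SE; edgeR adjusted p = 3.22e-08). Its exons overlap Gm6061 on the same strand and share 2.44% of windows with other genes. Gclc, the catalytic subunit, stood at 62.9, 73.2, 79.4, 58 and 57.5 CPM in buccal libraries 1 to 5 and 93.2, 79.3, 91.3, 104 and 106 CPM in palatal libraries 1 to 5. The ranges met only where buccal library 3 slightly exceeded palatal library 2, and Gclc was 1.43-fold higher (0.52 ± 0.10, adjusted p = 9.41e-04 in edgeR's test). Slc7a11, the cystine importer that feeds this pathway, ran from 42.3 to 79 CPM in buccal and from 28.2 to 52.4 CPM in palatal libraries, with library 5 the highest of both sides. Its fall of -0.64 ± 0.20 (edgeR adjusted p = 0.0280) was lost without buccal library 2 or 5 or palatal library 1, 2, 3 or 4 (log2 fold changes -0.61, -0.49, -0.55, -0.63, -0.55 and -0.64; adjusted p from 0.00355 to 0.0662 over the 10 omissions). Gsr, which recycles oxidised glutathione, did not pass (7.06 ± 1.78 CPM in buccal and 6.66 ± 0.630 CPM in palatal libraries, SD; adjusted p = 0.707).

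Nqo1, a quinone reductase often used as a readout of NRF2, stood at 73.5, 69.3, 76.6, 87.7 and 90.5 CPM in buccal libraries 1 to 5 and 33.2, 38.9, 36.6, 35.6 and 34.9 CPM in palatal libraries 1 to 5. The highest palatal library was well below the lowest buccal one, a 2.22-fold difference (log2 fold change -1.15 ± 0.08, SE, n = 5 per side; edgeR adjusted p = 4.66e-08). Nqo1 was the only gene of the NRF2 target class called at 2-fold or more. Me1, which supplies NADPH, and Taldo1 went in opposite directions. Me1, the cytosolic malic enzyme, stood at 613, 636, 678, 694 and 689 CPM in buccal libraries 1 to 5 and 903, 903, 886, 881 and 922 CPM in palatal libraries 1 to 5. Its palatal values were tightly grouped, with a coefficient of variation of 1.78%, and lay above every buccal value (0.44 ± 0.06, edgeR adjusted p = 6.63e-05). Of the 100-base windows of its transcripts, 12.3% also occur in the annotated genes Gm7049 and Gm7329, so part of its reads is uncertain. Taldo1, the transaldolase of the pentose phosphate pathway, stood at 312, 230.3, 268, 323 and 309 CPM in buccal libraries 1 to 5 and 207, 215, 223, 198 and 187 CPM in palatal libraries 1 to 5. It was 1.40-fold lower without overlap (-0.49 ± 0.09, edgeR adjusted p = 6.03e-04), and buccal library 2 was the lowest of its side.

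In the thioredoxin and peroxiredoxin branch, Txnrd1, the cytosolic thioredoxin reductase, stood at 28.5, 31.9, 36.2, 33.4 and 39.4 CPM in buccal libraries 1 to 5 and 41, 43.2, 43.1, 40.8 and 54.4 CPM in palatal libraries 1 to 5. Palatal library 5 was far above the other palatal libraries, and the sides did not overlap (0.39 ± 0.10, SE; edgeR adjusted p = 0.00493). Without palatal library 5 the difference was 0.31 (adjusted p = 0.0123; 0.00231 to 0.0126 over the 10 omissions). Prdx6, a peroxiredoxin that uses glutathione, was 1.32-fold lower (-0.40 ± 0.13, edgeR adjusted p = 0.0207) with overlapping sides. That call was lost without buccal library 4 or 5 or palatal library 1 (log2 fold changes -0.30, -0.34 and -0.36; adjusted p 0.00172 to 0.0595 over the 10 omissions). As Prdx6 and Slc7a11 then both missed the threshold, the count of NRF2 targets called lower went from 5 to 3 without buccal library 5 or palatal library 1. Prdx1, which is reduced by thioredoxin, and Srxn1, which repairs overoxidised peroxiredoxins, did not pass, at 0.12 and 0.12 (adjusted p = 0.246 and 0.166). Akr1b8, an aldo-keto reductase, was higher by 0.42 ± 0.13 without overlap, at a mean of 6.16 CPM in buccal and 8.22 CPM in palatal libraries (adjusted p = 0.0189), and missed the threshold with library totals as the scale (0.37, adjusted p = 0.0507; 0.00453 to 0.0507 over the alternatives). Cbr3, a carbonyl reductase, was at 0.24 ± 0.11 (adjusted p = 0.0983) and passed only without buccal library 4 (0.31, adjusted p = 0.0335; 0.0335 to 0.216 over the omissions). Hmox1, the inducible haem oxygenase, ran from 58.5 to 105 CPM in buccal and from 75.9 to 95.9 CPM in palatal libraries, the palatal range lying inside the buccal one (adjusted p = 0.754).

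**Figure D2:**
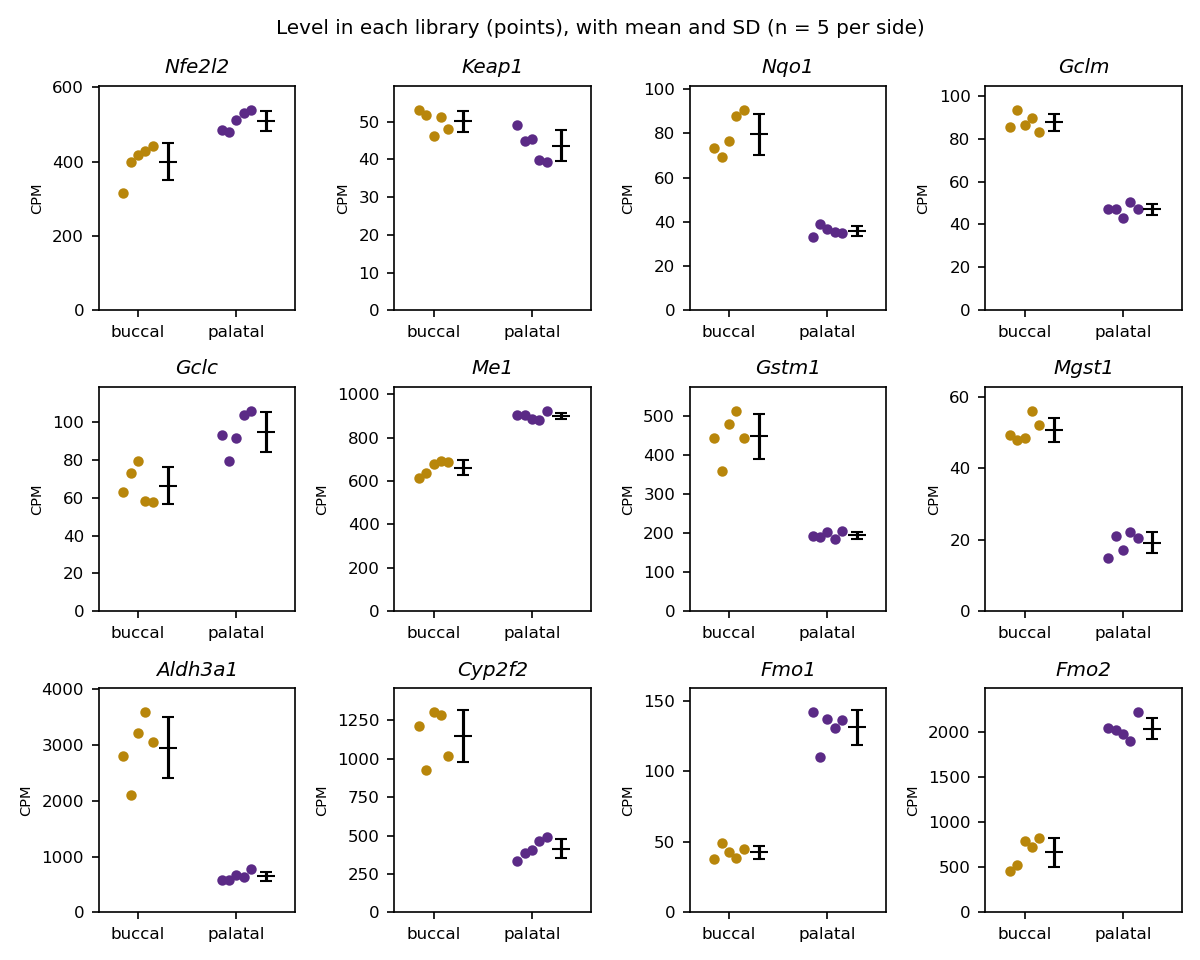
Level in CPM (y axis, from 0) of 12 genes in each of the 5 buccal and 5 palatal libraries (points), with the mean and SD beside them. Nqo1, Gclm, Gstm1, Mgst1, Aldh3a1 and Cyp2f2 are lower in every palatal library, Nfe2l2, Me1, Fmo1 and Fmo2 are higher, and the sides of Keap1 and Gclc overlap.

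Glutathione enzymes fell or did not pass. Of 15, all tested, 8 were lower in palatal (53.3%, beside 20.3% of all tested genes), 7 did not pass and 0 were higher in edgeR's test, with a median log2 fold change of -0.31. All 3 microsomal members, which sit in membranes and act on lipid-derived and foreign electrophiles, were lower. Mgst1 stood at 49.3, 48, 48.4, 56 and 52.2 CPM in buccal libraries 1 to 5 and 15, 21, 17.3, 22.1 and 20.5 CPM in palatal libraries 1 to 5. The sides were widely separate, and Mgst1 was 2.65-fold lower (log2 fold change -1.41 ± 0.10, SE, n = 5 per side; edgeR adjusted p = 4.18e-08). Mgst2, which can also make cysteinyl leukotrienes, stood at 11.7, 11.3, 11.1, 13.8 and 13.8 CPM in buccal libraries 1 to 5 and 4.01, 6.77, 5.39, 4.94 and 6.39 CPM in palatal libraries 1 to 5. It too was lower in every palatal library, by 2.24-fold (-1.17 ± 0.13, edgeR adjusted p = 5.44e-06). Mgst3 was at 56.1 ± 12.5 CPM in buccal and 37.5 ± 4.19 CPM in palatal libraries (SD), and its ranges overlapped through buccal library 2 (-0.58 ± 0.14, edgeR adjusted p = 0.00479).

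Of the cytosolic transferases, Gstm1 of the mu class stood at 443, 359, 479, 512 and 443 CPM in buccal libraries 1 to 5 and 193, 189, 204, 184 and 204 CPM in palatal libraries 1 to 5. Palatal values were close together and all below buccal ones, a 2.29-fold difference (-1.20 ± 0.09, SE; edgeR adjusted p = 6.59e-08). Gstm2, its neighbour in the same class, stood at 70.3, 71.2, 81, 79.6 and 71 CPM in buccal libraries 1 to 5 and 49.7, 49.2, 53.7, 60.2 and 56.1 CPM in palatal libraries 1 to 5. It was lower without overlap, by a smaller 1.39-fold (-0.47 ± 0.07, edgeR adjusted p = 1.08e-04). Gstm5, the third mu member, did not pass (0.18 ± 0.13, adjusted p = 0.321). Gstp1 of the pi class, a known NRF2 target in rodents, stood at 45.9, 40.1, 40.6, 46.4 and 44.8 CPM in buccal libraries 1 to 5 and 22.3, 25.9, 24.6, 26.1 and 22.2 CPM in palatal libraries 1 to 5. It was 1.80-fold lower without overlap (-0.85 ± 0.07, edgeR adjusted p = 3.84e-07), and 25.1% of the 100-base windows of its transcripts also occur in Gstp2 or a pseudogene, so the reads assigned to it are uncertain, as they are for the 5.86% of windows that Gstm1 shares. Gstt1 of the theta class was scarce, at 0.450, 0.690, 0.516, 0.587 and 0.399 CPM in buccal libraries 1 to 5 and 0.298, 0.128, 0.197, 0.199 and 0.253 CPM in palatal libraries 1 to 5. Its buccal values were all higher (-1.28 ± 0.28, edgeR adjusted p = 0.00193), on 83 counts over the buccal and 32 over the palatal libraries, and it entered the test through its higher side, so its call is a description. The alpha-class members did not pass. Gsta4, active on lipid peroxidation products such as hydroxynonenal, stood at 407 ± 32.2 CPM in buccal and 447 ± 65.1 CPM in palatal libraries (SD, n = 5, edgeR adjusted p = 0.297). Gsta3 stood at 9.24 ± 1.25 CPM in buccal and 9.76 ± 0.843 CPM in palatal libraries (SD, n = 5, edgeR adjusted p = 0.596). Gsto1 of the omega class, which reduces dehydroascorbate, did not pass either, at 1201 ± 78.1 CPM in buccal and 1203 ± 48.8 CPM in palatal libraries (SD, n = 5; 0.00 ± 0.07, adjusted p = 0.987).

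The glutathione peroxidases, selenoenzymes that reduce peroxides at the cost of glutathione, held 1 called gene among 4. Gpx2, the gastrointestinal form and an NRF2 target, had a log2 fold change of -0.31 ± 0.09 (SE; edgeR adjusted p = 0.0109), with overlapping ranges and means of 379 ± 42 CPM in buccal and 306 ± 28.4 CPM in palatal libraries (SD). Gpx1, the ubiquitous form, stood at 222 ± 19.2 CPM in buccal and 207 ± 23.6 CPM in palatal libraries, and Gpx4, which protects membrane lipids, at 27.1 ± 3.99 CPM in buccal and 27.1 ± 2.89 CPM in palatal libraries (SD; adjusted p = 0.383 and 0.998). For Gpx4, 25.2% of transcript windows also occur in other annotated genes, pseudogenes among them. Gpx3, the secreted form, was rare and uneven, from 0.0985 to 0.838 CPM in buccal and from 0.265 to 1.05 CPM in palatal libraries (adjusted p = 0.498).

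Phase I enzymes held the largest differences in both directions. Of 10 genes 9 were tested; 3 were higher (33.3%, beside 18.7% of all tested genes), 4 were lower (44.4%, beside 20.3%), and 6 had sides that did not overlap (66.7%, beside 28.3%). Aldh3a1, an aldehyde dehydrogenase of surface epithelia such as the cornea that clears aldehydes from lipid peroxidation, stood at 2808, 2108, 3217, 3593 and 3049 CPM in buccal libraries 1 to 5 and 579.5, 576, 671, 633 and 777 CPM in palatal libraries 1 to 5. Buccal library 2 was the lowest of its side and still far above all palatal libraries, and Aldh3a1 was 4.57-fold lower in palatal (log2 fold change -2.19 ± 0.13, SE, n = 5 per side; edgeR adjusted p = 1.24e-08). Its relative Aldh3a2, the fatty aldehyde dehydrogenase, did not pass, at 19.3 ± 0.942 CPM in buccal and 20.8 ± 0.778 CPM in palatal libraries (SD; adjusted p = 0.191). Aldh2, the mitochondrial enzyme that oxidises acetaldehyde, was 1.30-fold lower with overlapping sides (-0.38 ± 0.10, edgeR adjusted p = 0.0101).

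Ces1d, a carboxylesterase that hydrolyses esters and lipids, stood at 76.3, 55.4, 67.7, 75.8 and 62.9 CPM in buccal libraries 1 to 5 and 15, 18, 18, 18.1 and 17.7 CPM in palatal libraries 1 to 5. It was 3.89-fold lower, with palatal library 1 the lowest of all (-1.96 ± 0.09, SE; edgeR adjusted p = 8.53e-10). Ces1d is also known as an adipocyte enzyme. Of 8 adipocyte markers 2 were tested and 1, Car3, was higher in palatal. The list summed to 25.5 to 31.2 CPM in buccal and 28.2 to 32.5 CPM in palatal libraries. Most of this was Pnpla2, at means of 26.3 and 24.8 CPM. The untested markers were near the floor and went both ways. Over the buccal and palatal libraries, Adipoq and Cidec had 3 and 0 counts each, Cfd 9 and 2, Lep 2 and 1, Retn 1 and 1, and Plin1 3 and 12. The part of adipocytes in the Ces1d result was not tested. Cyp2f2, a cytochrome P450 best known from airway club cells, stood at 1213, 927, 1305, 1283 and 1019.6 CPM in buccal libraries 1 to 5 and 334, 384, 406, 466 and 491 CPM in palatal libraries 1 to 5. All palatal values were lower, by 2.76-fold on average (-1.47 ± 0.12, edgeR adjusted p = 2.60e-07). The club cell marker Scgb1a1, named after its values were seen, was at 7.08 ± 2.07 CPM in buccal and 3.86 ± 0.887 CPM in palatal libraries (SD; -0.88 ± 0.20, edgeR adjusted p = 0.00333), and Scgb3a1 and Prol1 were at 0 in every library. The 8 gland and airway markers, of which 2 were tested, summed to 5.57 to 18.1 CPM in buccal and 6.09 to 63.7 CPM in palatal libraries, with the mucin Muc5b at a mean of 2.85 CPM in buccal and 25.6 CPM in palatal libraries (adjusted p = 0.0541), and their part in the Cyp2f2 result was not tested.

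The 2 flavin monooxygenases among the members, which oxidise nitrogen- and sulphur-containing compounds with NADPH, both rose. Fmo1 stood at 38.1, 49.4, 42.6, 38.9 and 44.7 CPM in buccal libraries 1 to 5 and 142, 110.3, 137, 130.5 and 136 CPM in palatal libraries 1 to 5. Fmo2, the main form of lung, stood at 456, 531, 792, 724 and 829 CPM in buccal libraries 1 to 5 and 2048, 2025, 1985, 1903 and 2223 CPM in palatal libraries 1 to 5. The lowest palatal library exceeded the highest buccal one for both, with folds of 3.07 and 3.06 (log2 fold changes 1.62 ± 0.09 and 1.61 ± 0.15, SE; edgeR adjusted p = 3.09e-09 and 7.52e-07). Buccal libraries 1 and 2 were the lowest for Fmo2, and the buccal coefficient of variation was 24.7% against 5.79% in palatal libraries. Ephx1, the microsomal epoxide hydrolase, whose exons overlap Gm36961 on the same strand, was at -0.16 ± 0.07 and did not pass (adjusted p = 0.0863), except with library totals as the scale (-0.21, adjusted p = 0.0346), with the replicate number as a block (-0.16, adjusted p = 0.0415) and without buccal library 2 (-0.20, adjusted p = 0.0369; 0.0369 to 0.207 over the 10 omissions).

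**Figure D3:**
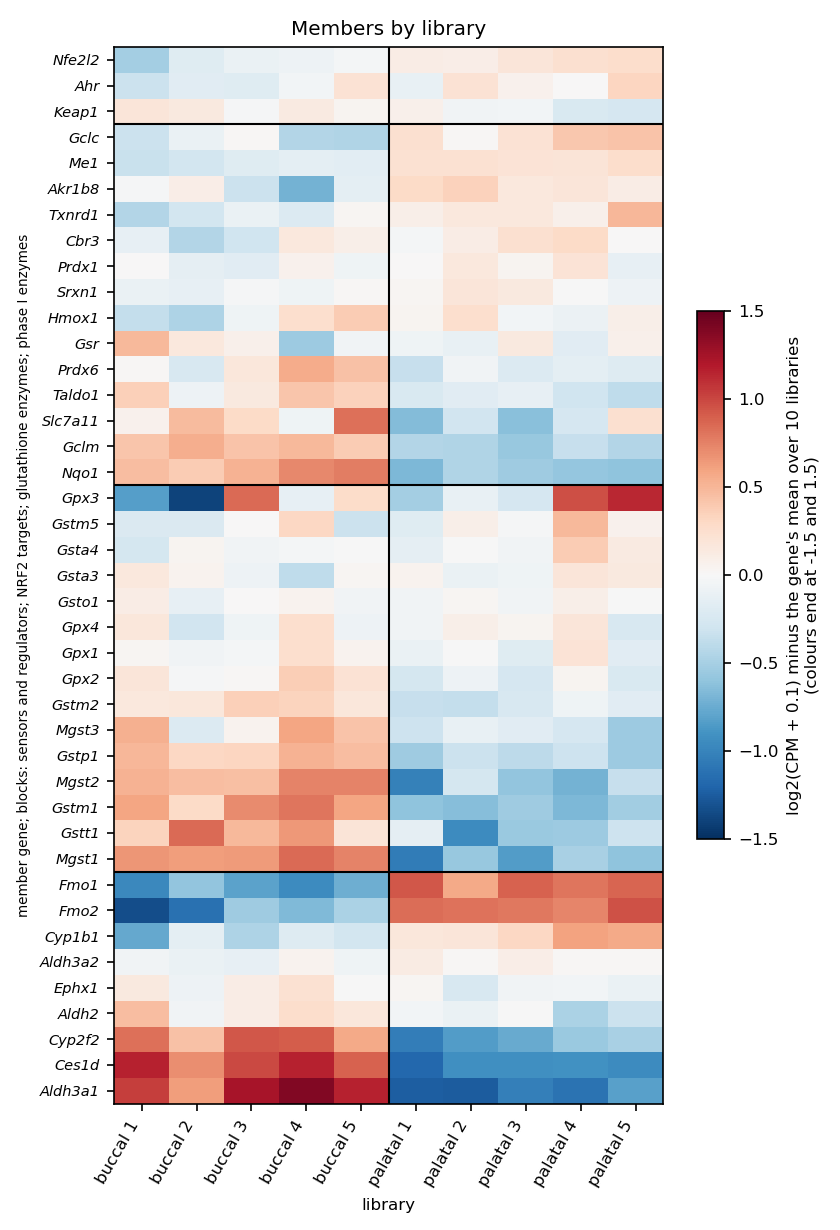
Each row is a tested gene and each column a library; colour gives log2(CPM + 0.1) minus the gene's mean over the 10 libraries, from -1.5 (blue) to 1.5 (red), with lines between the 4 classes and between the sides. Fmo1 and Fmo2 are blue in buccal and red in palatal libraries, Aldh3a1, Ces1d and Cyp2f2 are the reverse, and Gpx3 varies within both sides.

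The branch read by the aryl hydrocarbon receptor gave a mixed picture. Cyp1a1, its most inducible target in many tissues, had 7 counts over the 5 buccal and 7 over the 5 palatal libraries and could not be compared at this depth. Cyp1b1, a P450 that is also induced through this receptor, was low but rose, standing at 0.708, 1.15, 0.902, 1.11 and 1.04 CPM in buccal libraries 1 to 5 and 1.46, 1.47, 1.61, 1.99 and 1.95 CPM in palatal libraries 1 to 5. Every palatal value was higher (0.78 ± 0.18, SE, n = 5 per side; edgeR adjusted p = 0.00270, on 156 and 251 counts). Of 7 listed receptor partners and other targets, 6 were tested. In edgeR's test 3 fell (50%, beside 20.3% of all tested genes) and 0 rose (beside 18.7%). The count of 0 also holds at an unadjusted p under 0.05 and in DESeq2 and limma-voom. Ahrr, the repressor that the receptor induces against itself, was at 0.782 ± 0.132 CPM in buccal and 0.233 ± 0.112 CPM in palatal libraries (SD), on 124 and 36 counts. It entered the test through its buccal side, so its call, 1 of the 3, is a description. Tiparp, a further induced gene whose product modifies the receptor, fell by 0.45 on the log2 scale (from 46.9 to 34.4 CPM, edgeR adjusted p = 1.47e-04), and Hsp90ab1, a chaperone that holds the receptor in the cytoplasm, fell by 0.30 (adjusted p = 0.00643). Arnt, the dimer partner, did not pass (-0.05 ± 0.06, adjusted p = 0.587). The core of the xenobiotic response element, GCGTG, was present in 28.2% of all 250-base promoters and at 20 of 41 member starts. Its matches at the 2 Cyp1 members, printed 5′ to 3′ with the core or its reverse complement in capitals because these are the receptor's standard targets, were as follows.
Cyp1a1: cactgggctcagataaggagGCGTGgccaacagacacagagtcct
Cyp1b1: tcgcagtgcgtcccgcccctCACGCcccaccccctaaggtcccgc
They begin 54 bases before the start of Cyp1a1 (chr9:57697539-57697583, + strand) and 76 before that of Cyp1b1 (chr17:79715113-79715157, - strand; RefSeq, GRCm38.p6).

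Other genes of these pathways were lower in palatal more often than higher. They come from lists that do not overlap with the 42 but were likewise chosen with earlier results of these data known. Their shares are thus descriptions. Of 91 listed, 83 were tested. Of these, 39 fell (47%) and 10 rose (12%), beside 20.3% and 18.7% of all tested genes. Their median log2 fold change was -0.24. Ahrr, Gstp3 and Sod3 among the falls and Aldh1a1 among the rises entered the test through their higher side, so their calls are descriptions. Of 11 NRF2 partners and turnover genes, 3 fell, 1 rose and 7 did not pass, and the share called, 36.4%, was near the 38.9% of all tested genes. Nfe2l3, a relative of NRF2, fell by 0.84 on the log2 scale (edgeR adjusted p = 2.37e-05), the small MAF gene Maff was at -0.38 and its relative Mafk at 0.21 (adjusted p = 0.0139 and 0.0219). Mafk did not pass without buccal library 3 or 4 (0.19 and 0.18) or with library totals as the scale or no filter (0.16 and 0.21; adjusted p 0.00793 to 0.107 over all alternatives). Sqstm1, an autophagy adaptor that draws KEAP1 away, was at -0.26 (edgeR adjusted p = 0.0202) and did not pass without buccal library 5 or palatal library 4 or 5 (-0.23, -0.21 and -0.24; adjusted p 0.00766 to 0.0561 over all alternatives).

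Of 26 further NRF2 targets and antioxidant genes, all tested, 13 fell (50%, beside 20.3% of all tested genes) and 4 rose (15.4%, beside 18.7%). The other 9 did not pass, and the median was -0.28. Sod3, 1 of the 13, had 268 counts over the buccal and 60 over the palatal libraries. It entered the test through its buccal side, so its call is a description. Gss, which completes glutathione after the ligase made of Gclc and Gclm, was at 56.3 ± 4.24 CPM in buccal and 31.1 ± 1.35 CPM in palatal libraries (SD; palatal minus buccal -0.86 ± 0.07, edgeR adjusted p = 1.25e-07). Pgd, a dehydrogenase that yields NADPH in the pentose phosphate pathway, was at 329 ± 16.1 CPM in buccal and 180.5 ± 10.9 CPM in palatal libraries (SD; -0.87 ± 0.06, edgeR adjusted p = 8.82e-08). G6pdx and Tkt of the same pathway, named after their values were seen, were lower, at -0.53 ± 0.07 and -0.33 ± 0.07 (adjusted p = 2.47e-05 and 0.00146 in edgeR's test), so that with Taldo1 all 4 listed enzymes of the pathway were lower without overlap, while Me1 was higher. Blvrb, a biliverdin reductase, and Lrp8, a receptor that takes up selenoprotein P, fell by 1.15 and 1.14 (edgeR adjusted p = 9.23e-08 and 1.83e-06). Among the 4 that rose, also named after their values were seen, were Fth1, the ferritin heavy chain, at 1290.3 ± 176 CPM in buccal and 2008 ± 143 CPM in palatal libraries (SD), and Prdx2, a peroxiredoxin, at 236 ± 22.1 CPM in buccal and 380.2 ± 34.2 CPM in palatal libraries (SD; 0.64 ± 0.10 and 0.69 ± 0.08, edgeR adjusted p = 1.11e-04 and 1.07e-05).

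Of 21 other glutathione enzymes 18 were tested. Of these, 6 fell, 2 rose and 10 did not pass (median -0.04). The share called, 44.4%, was near the 38.9% of all tested genes. Gstp3, 1 of the 6, had 151 counts over the buccal and 39 over the palatal libraries. It entered the test through its buccal side, so its call is a description. The mu-class Gstm4 and Gstm6 fell by 1.24 and 1.09 and the pi-class Gstp2 by 1.20 (edgeR adjusted p = 2.66e-07, 6.96e-06 and 6.70e-06), beside the falls of Gstm1, Gstm2 and Gstp1 given above. Gstp2 shares windows with Gstp1 and is uncertain. Hpgds, the haematopoietic prostaglandin D synthase, fell by 1.59 at low level (4.07 ± 0.992 CPM in buccal and 1.34 ± 0.461 CPM in palatal libraries, SD; edgeR adjusted p = 5.20e-05), and 7 of 9 leukocyte markers fell beside it, whose part in its fall was not tested. Of 26 other phase I enzymes 22 were tested. Of these, 14 fell (63.6%, beside 20.3% of all tested genes), 3 rose (13.6%, beside 18.7%) and 5 did not pass (median -0.32). The aldehyde dehydrogenases Aldh3b2 and Aldh1a7 fell by 0.90 and 1.92, and Adh7, the alcohol and retinol dehydrogenase of upper digestive epithelium, by 0.80 (edgeR adjusted p = 6.03e-08, 7.57e-07 and 2.81e-05). Cyp2j6, a P450 that acts on fatty acids, rose by 0.77 ± 0.09 (SE; edgeR adjusted p = 5.32e-06). Aldh1a1, a retinal dehydrogenase named after its values were seen and 1 of the 3 counted as rising, had 24 counts over the buccal and 141 over the palatal libraries; it entered the test through its palatal side, so its call is a description.

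**Figure D4:**
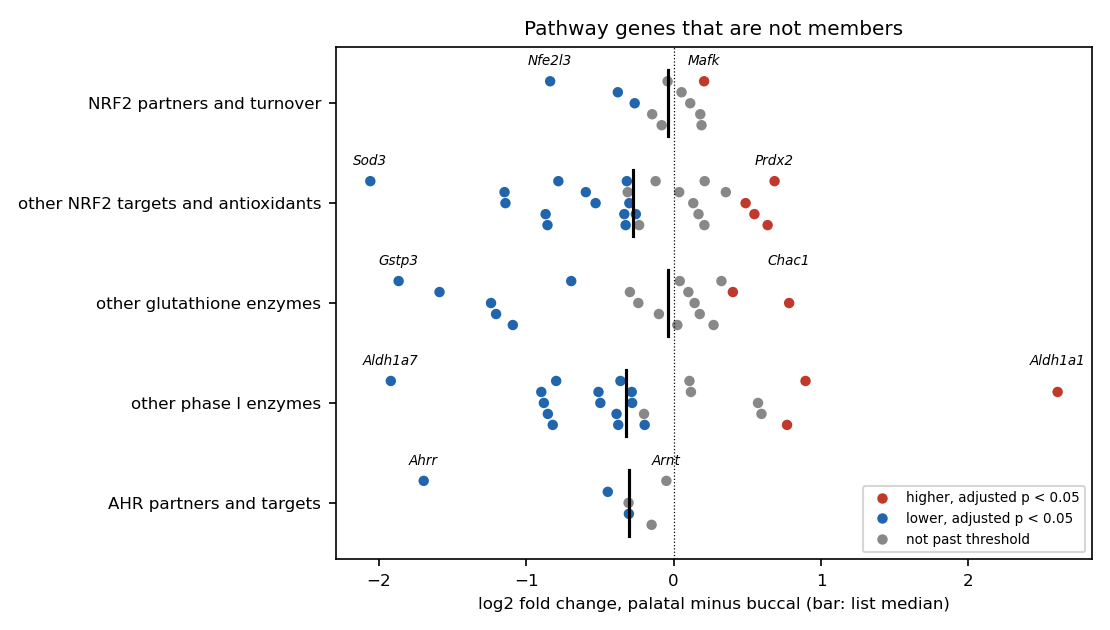
Log2 fold change, palatal minus buccal (x axis), of the 83 tested pathway genes outside the 42, in 5 lists (y axis), with red and blue for genes past an adjusted p of 0.05 in edgeR's test, a bar at each list's median and the end genes named. Blue points outnumber red ones in every list, and the medians lie between -0.32 and -0.04.

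Levels were set between genes only per kilobase of exon, with exon lengths from GENCODE M21. In buccal libraries Aldh3a1 was the most abundant member, at 1522 CPM per kilobase, followed by Gsto1 at 594, Cyp2f2 at 568, Gsta4 at 322 and Gstm1 at 303 CPM per kilobase. In palatal libraries the order began with Gsto1 at 595, Fmo2 at 363, Gsta4 at 353 and Aldh3a1 at 333 CPM per kilobase, so that Fmo2 went from rank 11 to rank 2 of 42 and Gstm1 from rank 5 to rank 10. Palatal values of Fmo2, Gsta4 and Aldh3a1 are close, and the order among them was not tested. At the lower end stood Gstt1, Gpx3, Cyp1b1 and Cyp1a1, from 0.0152 to 0.346 CPM per kilobase in buccal and from 0.0175 to 0.325 in palatal libraries.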

How the data were processed

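Stranded KAPA libraries of polyadenylated RNA from 10 samples were read from one end, per the labels' protocols. Among tools, the submitters' processing notes list HTSeq 2.01, TopHat2 2.1.1, DESeq2 1.36.0 and cutadapt 2.10, beside build GRCm39; how strand was handled in counting is not given in the sources used here. In the deposited table stand raw counts per gene and library and, per the file headers, DESeq2-normalized values, a signal that equals each count over the size factor of its library. The 6250 genes of 55414 without any entry were dropped. The table has 0 columns of other samples. Samples were grouped by the tissue label.

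Genes kept by edgeR's filterByExpr (minimum count 10; 14062 genes) were scaled by TMM and tested with the robust quasi-likelihood F-test, two-sided, Benjamini-Hochberg adjusted over all tested genes at 0.05 (edgeR 4.0.16, limma 3.58.1, DESeq2 1.42.0, R 4.3.3). The script was tested on simulated data. CPM uses TMM-scaled sizes, and SE is the log2 fold change over the square root of F. The members, classes, lists and markers were chosen with earlier results of these data known. Library values are given for the regulators and the 6 members of each other class with the smallest p, and from each pathway list up to 4 called genes with the smallest p. Alternatives were scaling by RLE, by upper quartiles or by library totals, no or a stricter filter (1 CPM in 5 libraries), DESeq2, limma-voom, limma-trend on log2 of the deposited values plus 1, the replicate number as a block, FDR 0.01, and omission of each library or of number 2 on both sides. Transcripts of GENCODE M21, of another build, were compared in windows of 100 bases: 32 members share none with another gene, and 7 have an annotated gene on the opposite strand of their exons, whose reads cannot be told apart if strand was not used (Cyp2f2, Me1, Gclm, Gstm5, Aldh2, Keap1 and Ahr). Gene coordinates are therefore not given; promoter coordinates are RefSeq's on GRCm38.p6. Counting-error intervals do not apply to the group means, and reads lacking molecular identifiers need not be separate molecules. No 2 libraries of a side agreed within sampling noise (8.35 to 64.9 chi-square units per degree of freedom).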

Additional observations from a re-analysis of the deposited data

Results flagged for a closer look

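In groups of 5 libraries, 3 of 84 combinations of gene and side had a library whose gap to its nearest neighbour took up more of the range than Dixon's 95% limit of 0.71; chance gives about 1 in 20. Txnrd1 was at 54.4 CPM in palatal library 5, against 40.8 to 43.2 CPM in the other palatal libraries. Ces1d was at 15 CPM in palatal library 1, against 17.7 to 18.1 CPM in the others. Cyp1a1 was at 0.0799 CPM in buccal library 5, against 0.0322 to 0.0346 CPM in the others, on a few counts.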

How the results depend on the processing

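Of the 26 called members, 22 kept their direction and passed under every alternative that tested them, other than FDR 0.01. Keap1, Slc7a11, Prdx6 and Akr1b8 did not. Gstt1, counted among the 22, was dropped by the stricter filter, under which 7 glutathione enzymes and 17 members were lower. The count of genes past the threshold was 4916 to 5399 when libraries were left out in turn, with 15 to 18 members lower and 8 to 9 higher. Leaving out libraries gave 0 to 1 regulators lower and 1 to 2 higher, 3 to 5 NRF2 targets lower, and 0 to 1 NRF2 partners higher. Other phase I enzymes called lower, 14 in the main fit, were 10 to 15 over these omissions and 12 without a filter. Keap1, the 1 regulator called lower, was not called (0) with upper-quartile scaling, without a filter, at FDR 0.01 or without number 2 of both sides. At FDR 0.01, 3 NRF2 targets, 1 NRF2 partner and 8 other phase I enzymes were lower, and 0 NRF2 partners were higher, as also with library totals or no filter (0 each). The numbers in the labels were not shown to pair the libraries: 2 of 5 same-numbered pairs had deviations correlated above 0.1, and 3 of 5 buccal libraries correlated best with their own number. With the replicate number as a block, 5518 genes passed, Ahr made 2 regulators higher and Ephx1 made 5 phase I enzymes lower. Uncalled values near 0 changed sign: Gpx4 was 0.00222 with RLE, 0.0122 with upper-quartile scaling, 0.00506 without a filter, 0.00219 in DESeq2, 0.00630 in limma-voom, 0.00370 from the deposited values and 0.00457 with the block (-0.0674 to 0.0631 without single libraries). Gsto1 was -0.0455 with library totals and -0.0348 without number 2 of both sides (-0.0303 to 0.0353 without single libraries), Hmox1 -0.0800 without number 2 of both sides (-0.0287 to 0.183 without single libraries), and Gsr -0.203 to 0.0518 without single libraries. The cause of these changes was not tested. Low counts limit Cyp1a1, Gstt1, Gpx3 and Cyp1b1.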
